A study of Homo sapiens with 12 samples.

Results

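The 35 genes described here carry the ATF4 branch of the integrated stress response and the unfolded protein response of the endoplasmic reticulum. They were chosen by name: every array probe whose accession belongs to one of the 35 genes in RefSeq was taken, out of 27522 gene names on the array, and the rule itself uses no measured value. The 35 genes matched 39 array features, 32 genes with 1 feature and 3 genes with more. A gene was kept where its probe passed Agilent's test for signal well over background on each of the 3 arrays of 1 siRNA or more. All 35 were among the 20821 genes kept, and 34 of the 35 passed on all 12 arrays. By role, the genes are 3 stress sensors, 6 transcription factors, 12 genes of the ATF4 amino acid arm, 6 stress outputs of ATF4 and 8 genes of the XBP1/ATF6 chaperone arm.

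Cytoplasmic RNA was taken from U2OS, a human osteosarcoma cell line, and measured on one-colour Agilent arrays. The cells had been transfected with 20 nM of control siRNA, or of siRNA against DBP5, GLE1 or IPPK, by lipid transfection, and the methods give 48 h of culture for cytoplasmic RNA. Each of the 4 groups has 3 arrays, which the methods call independent experiments. DBP5 is the RNA helicase that removes export factors from mRNA at the outer face of the nuclear pore, GLE1 stimulates it, and IPPK makes inositol hexakisphosphate, which acts with GLE1. All cells were of 1 line, the control cells also received an siRNA and the lipid reagent, and the methods list 1 siRNA for DBP5 but 2 each for control, GLE1 and IPPK. Which of the latter pairs was on the arrays is not given in the sources used here.

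Kinases that sense stress, among them EIF2AK3 (PERK), phosphorylate the initiation factor eIF2 alpha, which slows general translation while the mRNA of ATF4 is translated better. ATF4 then drives genes for amino acid synthesis and uptake, for tRNA charging and for stress outputs such as DDIT3 (CHOP), CHAC1 and TRIB3. In parallel, the sensor ERN1 (IRE1) splices the mRNA of XBP1, and ATF6 is cut in the Golgi, and both factors then drive chaperones, folding enzymes and the degradation machinery of the endoplasmic reticulum. The array measures the amount of each mRNA in the cytoplasm, not the translation of ATF4, the splicing of XBP1 or the cutting of ATF6.

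Promoter stretches with the letters known for each arm are shown here because the chaperone arm is set against the ATF4 targets below. RefSeq promoter windows of 300 bases (250 before and 50 after the transcript start, build GRCh38.p14) were found for 32 of the 35 genes, the others being NUPR1, PSPH and SHMT2. Both strands were searched for 4 motifs. The core of the C/EBP-ATF composite element, TGATGNAA, was in the windows of CHAC1, HERPUD1 and SLC7A1, and in 3.75% of all 27305 promoter windows. The endoplasmic reticulum stress element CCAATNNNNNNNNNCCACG was in CALR and PDIA6 and in 0.0806% of all windows. Its second form, ATTGG and CCACG with 1 base of any kind between them, was in HERPUD1, HYOU1 and SDF2L1 and in 0.0623% of all windows. The XBP1 and ATF6 core TGACGTGG was in HYOU1 and in 0.762% of all windows. Thus 5 of the 8 chaperone genes held a form of the stress element. Of the 10 windows of the amino acid arm, 1, that of SLC7A1, held the ATF4 core, in the part after the transcript start. A match is a run of letters and not a shown binding site. The stretches run 5′ to 3′ on the strand of the gene and lie before the transcript start. Capitals mark the matched letters on either strand, and the TGACGTGG of HYOU1 overlaps its first match of the second form.
CHAC1, chr15:40953242-40953289, plus strand, TGATGNAA on the other strand: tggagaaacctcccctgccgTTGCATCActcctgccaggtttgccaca
HERPUD1, chr16:56931946-56932055, plus strand, TGATGNAA on the other strand, then the second form: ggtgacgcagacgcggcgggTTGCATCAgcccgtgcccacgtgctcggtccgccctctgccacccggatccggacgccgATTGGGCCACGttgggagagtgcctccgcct
CALR, chr19:12938364-12938422, plus strand, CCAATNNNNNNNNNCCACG on the other strand: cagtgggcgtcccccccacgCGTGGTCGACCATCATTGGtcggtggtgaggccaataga
PDIA6, chr2:10812833-10812891, minus strand, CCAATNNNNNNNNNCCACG: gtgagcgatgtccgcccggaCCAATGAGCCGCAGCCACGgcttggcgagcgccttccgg
SDF2L1, chr22:21642094-21642144, plus strand, the second form on the other strand: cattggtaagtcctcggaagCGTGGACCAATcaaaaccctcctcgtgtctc
HYOU1, chr11:119057254-119057413, minus strand, TGACGTGG, and 2 matches of the second form on the other strand: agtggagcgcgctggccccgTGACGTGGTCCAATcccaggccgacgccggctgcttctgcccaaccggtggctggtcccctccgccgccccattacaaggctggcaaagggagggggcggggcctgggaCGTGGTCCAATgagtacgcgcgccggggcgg

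The knock-downs were visible in the target mRNAs. After DBP5 siRNA, DDX19B, the gene of DBP5, fell to 0.0643 ± 0.00169 of the control mean (SD, n = 3 arrays, log2 difference -3.96 ± 0.056 SE, limma adjusted p = 5.71e-11). GLE1 fell to 0.102 ± 0.0283 after its siRNA (log2 difference -3.29 ± 0.15 SE, limma adjusted p = 2.18e-08), and IPPK fell to 0.186 ± 0.00761 after its own (log2 difference -2.43 ± 0.063 SE, limma adjusted p = 1.39e-09). IPPK also fell after DBP5 siRNA (log2 difference -1.25 ± 0.063 SE, limma adjusted p = 8.27e-08). A dimmer IPPK probe differed by -0.77, 1.07 and -1.02 after DBP5, GLE1 and IPPK siRNA, all called, where the brighter one gave -0.26 after GLE1 siRNA. DDX19A, a close paralogue whose probe may share sequence with DDX19B, fell after DBP5 siRNA by as much as DDX19B (log2 difference -4.20 ± 0.051 SE, limma adjusted p = 3.51e-11). It also fell after GLE1 siRNA (log2 difference -0.85 ± 0.051 SE, limma adjusted p = 1.54e-07) and after IPPK siRNA (log2 difference -1.73 ± 0.051 SE, limma adjusted p = 2.65e-09). DDX19B had a mean of 10.17 on the control arrays, 9.17 after GLE1 siRNA and 9.97 after IPPK siRNA. GLE1 had a mean of 8.30 on the control arrays, 7.93 after DBP5 siRNA and 7.81 after IPPK siRNA. Of 7 mesenchymal and osteoblast markers, 6 were well above background on every array, the exception being COL1A2. So were 4 of 6 epithelial and 2 of 5 blood markers. The epithelial marker CDH1 was well above background on 0 control, 3 DBP5, 3 GLE1 and 2 IPPK arrays. The log2 of the summed epithelial intensities was 11.58 to 11.63 on the control arrays and 11.50 to 11.79 after DBP5 siRNA. It was 12.14 to 12.32 after GLE1 siRNA and 10.73 to 11.25 after IPPK siRNA. The log2 sum of the mesenchymal intensities was 17.75 to 18.15 on the control arrays, 18.09 to 18.42 after DBP5 siRNA, 18.11 to 18.18 after GLE1 siRNA and 17.83 to 18.01 after IPPK siRNA. The log2 sum of the blood marker intensities was 9.90 to 10.06 on the control arrays, 10.13 to 10.22 after DBP5 siRNA, 10.13 to 10.21 after GLE1 siRNA and 9.72 to 9.79 after IPPK siRNA. Of the 7 mesenchymal markers 4 fell after IPPK siRNA, where 28.2% of all genes kept were lower. They were COL1A1 (-1.98), CDH11 (-0.94), RUNX2 (-0.71, all log2 differences) and COL1A2. After DBP5 siRNA, COL1A1 (-0.36), CDH11 (-0.56) and COL1A2 fell and VIM rose (0.33), and after GLE1 siRNA SPARC fell (-0.36) and CDH11 rose (0.35). COL1A2 was well above background on 3 control, 0 DBP5, 2 GLE1 and 0 IPPK arrays, so it was kept through the control arrays alone. The nuclear-retained RNAs did not move together. The log2 differences after DBP5, GLE1 and IPPK siRNA were 0.66, 0.88 and 0.23 for KCNQ1OT1 (all called) and -0.54, -0.31 and -1.08 for MALAT1 (the last called). For MEG3 they were -0.065, 0.35 and 0.050 (GLE1 called), and a dimmer MEG3 probe had the opposite sign after GLE1 siRNA, at -0.29 (limma adjusted p = 0.611). The part of these lists in the results on the stress genes was not tested. Between 70.91% and 77.7% of probes were well above background per array, with 70.91% to 73.77% on the IPPK arrays, and 0 spots were saturated. Arrays give no counts, so the 3 arrays per group set the precision, and in such bulk RNA fewer cells with a transcript and less of it per cell cannot be told apart.

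Values below are log2 intensities after cyclic loess normalization, which sets the bulk of genes level between arrays, so each difference is relative to the other genes and a loss shared by all cytoplasmic mRNAs would not be seen. A gene is called where limma's p, adjusted over all genes within a comparison, is at most 0.05. After DBP5 siRNA, 22 of the 35 genes were lower and 4 were higher than control, while 27.1% of all genes kept were lower and 27.3% higher. After GLE1 siRNA, 17 were lower and 7 higher, against 30.4% and 32.0% of all genes. IPPK siRNA gave 7 lower and 16 higher, against 28.2% and 27.3% of all genes. The median log2 difference of the 35 genes was -0.49 after DBP5 siRNA, -0.16 after GLE1 siRNA and 0.15 after IPPK siRNA, where the medians over all genes were -0.020, 0.030 and -0.030. The 3 comparisons share the control arrays. Within each of the 3 replicate numbers, which hold 1 array of every siRNA, all 26, 24 and 23 called genes kept the sign of their difference. For 25, 24 and 23 of them the arrays did not overlap the control, which fixes these signs, so this adds no separate support.

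**Figure D1:**
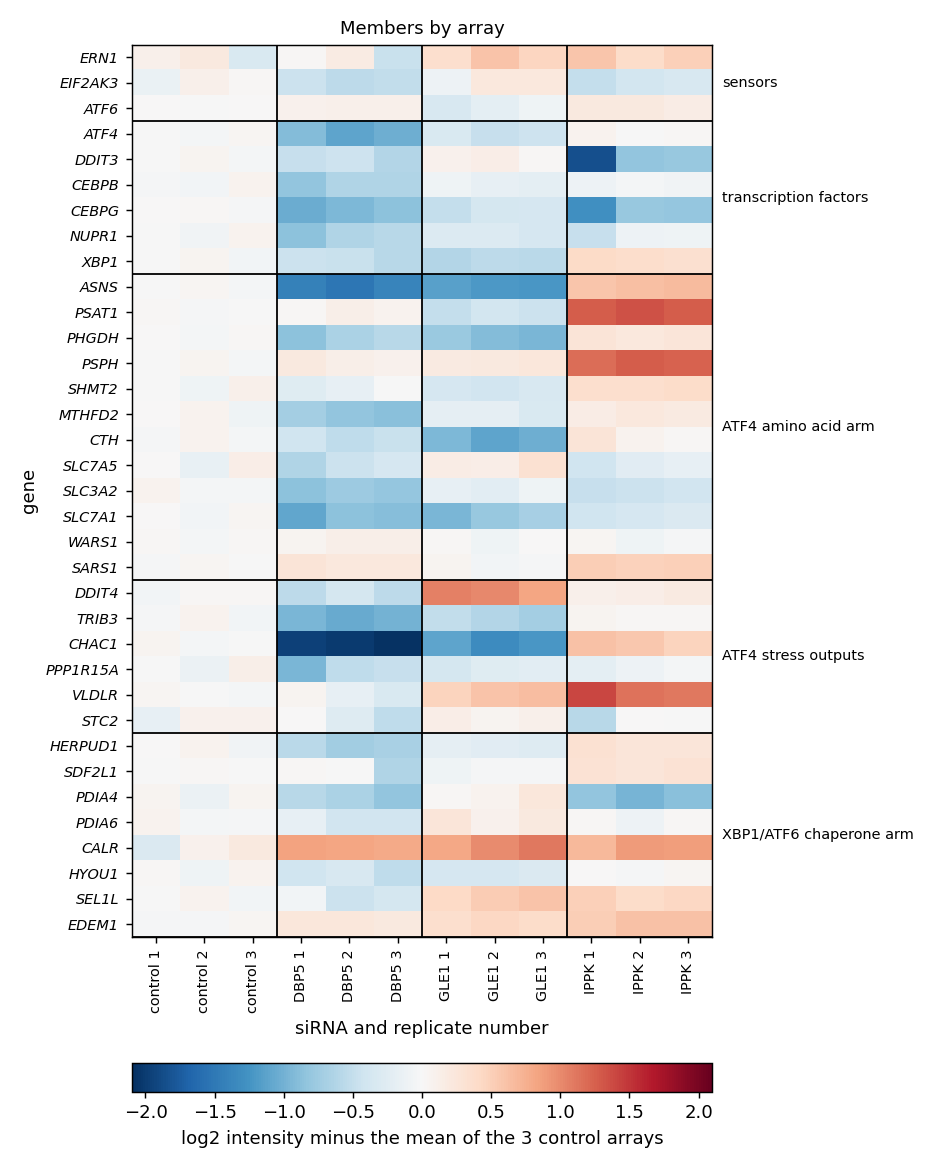
Log2 intensity of the 35 genes (rows, grouped by role) on the 12 arrays (columns), as the difference from the mean of the 3 control arrays, with blue below and red above control. ASNS, CHAC1 and PHGDH were blue on all 6 DBP5 and GLE1 arrays and red on the 3 IPPK arrays, and CALR was red on all 9 knock-down arrays.

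The 3 sensors moved each in its own way, with log2 differences from control of -0.51 to 0.49. EIF2AK3, the PERK kinase, fell after DBP5 siRNA (log2 difference -0.51 ± 0.098 SE, limma adjusted p = 0.00123) and after IPPK siRNA (log2 difference -0.41 ± 0.098 SE, limma adjusted p = 0.00477), and its difference after GLE1 siRNA was 0.11 ± 0.098 (SE, limma adjusted p = 0.354). The latter was 0.22, and called, without the first GLE1 array (limma adjusted p = 0.0386). Its 6 arrays of DBP5 and IPPK siRNA lay at 7.27 to 7.49, below the control arrays at 7.69 to 7.93. ATF6, the membrane-bound factor that is cut to become active, was slightly lower after GLE1 siRNA (log2 difference -0.21 ± 0.059 SE, limma adjusted p = 0.0102) and slightly higher after IPPK siRNA (log2 difference 0.19 ± 0.059 SE, limma adjusted p = 0.0195), and its difference after DBP5 siRNA was 0.10 ± 0.059 (SE, limma adjusted p = 0.188). ERN1, the XBP1-splicing enzyme, had the dimmest probe of the 3 and read 4.45 to 4.97 on the control arrays, 4.29 to 4.93 after DBP5 siRNA, 5.12 to 5.37 after GLE1 siRNA and 5.15 to 5.35 after IPPK siRNA. It was called higher after GLE1 siRNA (log2 difference 0.47 ± 0.17 SE, limma adjusted p = 0.0349) and after IPPK siRNA (log2 difference 0.49 ± 0.17 SE, limma adjusted p = 0.0343), but without the third control array the differences were 0.32 and 0.33, with limma adjusted p of 0.137 and 0.132. After DBP5 siRNA the ERN1 difference was -0.091 ± 0.17 (SE, limma adjusted p = 0.706). The calls were also lost without the second or the third GLE1 array and without the first or the third IPPK array (limma adjusted p of 0.0701 to 0.108). The ATF6 rise after IPPK siRNA also missed the threshold without the second control array or without the first or the second IPPK array, with limma adjusted p from just over 0.05 to 0.0567.

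Among the 6 transcription factors, 5 fell after DBP5 siRNA, 4 after GLE1 siRNA and 2 after IPPK siRNA, and 1 rose, XBP1 after IPPK siRNA. Over all genes 27.1%, 30.4% and 28.2% were lower, so the falls after IPPK siRNA were near the background. ATF4 itself read 17.38, 17.34 and 17.43 on the control arrays and 16.47, 16.27 and 16.36 after DBP5 siRNA. ATF4 read 17.07, 16.90 and 16.95 after GLE1 siRNA and 17.46, 17.38 and 17.41 after IPPK siRNA. The 3 DBP5 arrays were the lowest, the GLE1 arrays lay between them and the control arrays, and the IPPK arrays overlapped the control. ATF4 fell to 0.494 ± 0.0338 of control after DBP5 siRNA (SD, n = 3, log2 difference -1.02 ± 0.064 SE, limma adjusted p = 3.73e-07) and to 0.752 ± 0.0451 after GLE1 siRNA (log2 difference -0.41 ± 0.064 SE, limma adjusted p = 2.11e-04), and after IPPK siRNA its difference was 0.035 ± 0.064 (SE, limma adjusted p = 0.679). CEBPG, a leucine-zipper partner of ATF4, read 12.45, 12.48 and 12.42 on the control arrays and 11.40, 11.51 and 11.59 after DBP5 siRNA. CEBPG read 11.94, 12.08 and 12.09 after GLE1 siRNA and 11.16, 11.64 and 11.64 after IPPK siRNA. All 9 knock-down arrays were below the control arrays, and CEBPG fell to 0.519 ± 0.0346, 0.754 ± 0.0432 and 0.512 ± 0.0932 of control with DBP5, GLE1 and IPPK siRNA, with limma adjusted p of 5.47e-05, 0.0111 and 4.62e-05. DDIT3, the CHOP factor induced by ATF4 under lasting stress, read 10.67, 10.74 and 10.64 on the control arrays and 10.21, 10.26 and 10.07 after DBP5 siRNA. DDIT3 read 10.77, 10.83 and 10.72 after GLE1 siRNA and 8.84, 9.85 and 9.89 after IPPK siRNA. Its arrays after DBP5 and IPPK siRNA lay below all control arrays, and the first IPPK array lay about 1 log2 unit below the other two. DDIT3 fell after IPPK siRNA to 0.448 ± 0.168 of control (log2 difference -1.16 ± 0.22 SE, limma adjusted p = 0.00123), and without the first IPPK array the difference was -0.81 (limma adjusted p = 7.49e-06). Its difference after DBP5 siRNA was -0.51 ± 0.22 (SE, limma adjusted p = 0.0808) and after GLE1 siRNA 0.086 ± 0.22 (SE, limma adjusted p = 0.774). The DBP5 value was called when only the 6 arrays compared were fitted (limma adjusted p = 0.00147).

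CEBPB and NUPR1, stress-induced partners in the same network, fell most after DBP5 siRNA. CEBPB read 14.30 to 14.43 on the control arrays, 13.52 to 13.73 after DBP5 siRNA, 14.14 to 14.27 after GLE1 siRNA and 14.24 to 14.31 after IPPK siRNA, and it fell to 0.616 ± 0.0487 of control after DBP5 siRNA (log2 difference -0.70 ± 0.067 SE, limma adjusted p = 8.20e-06). Its differences were -0.16 ± 0.067 (SE, limma adjusted p = 0.062) after GLE1 siRNA and -0.078 ± 0.067 (SE, limma adjusted p = 0.359) after IPPK siRNA. The GLE1 value was -0.19, and called, without the first GLE1 array (limma adjusted p = 0.0468). NUPR1, a small chromatin protein, read 14.39 to 14.54 on the control arrays, 13.60 to 13.88 after DBP5 siRNA, 14.11 to 14.17 after GLE1 siRNA and 13.97 to 14.37 after IPPK siRNA. It fell to 0.618 ± 0.0617 after DBP5 siRNA (log2 difference -0.69 ± 0.11 SE, limma adjusted p = 3.06e-04), where no array overlapped the control. Its smaller fall after GLE1 siRNA (log2 difference -0.31 ± 0.11 SE, limma adjusted p = 0.031) was lost when any of the 3 GLE1 arrays or the first or the third control array was left out, with limma adjusted p of 0.059 to 0.0974. XBP1, the effector of ERN1, read 13.70 to 13.81 on the control arrays, 13.18 to 13.30 after DBP5 siRNA, 13.13 to 13.21 after GLE1 siRNA and 14.10 to 14.15 after IPPK siRNA. XBP1 fell to 0.706 ± 0.0320 and 0.670 ± 0.0182 of control after DBP5 and GLE1 siRNA (limma adjusted p = 1.28e-05 and 2.85e-06). It rose to 1.29 ± 0.0247 after IPPK siRNA (log2 difference 0.37 ± 0.051 SE, limma adjusted p = 1.19e-04).

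**Figure D2:**
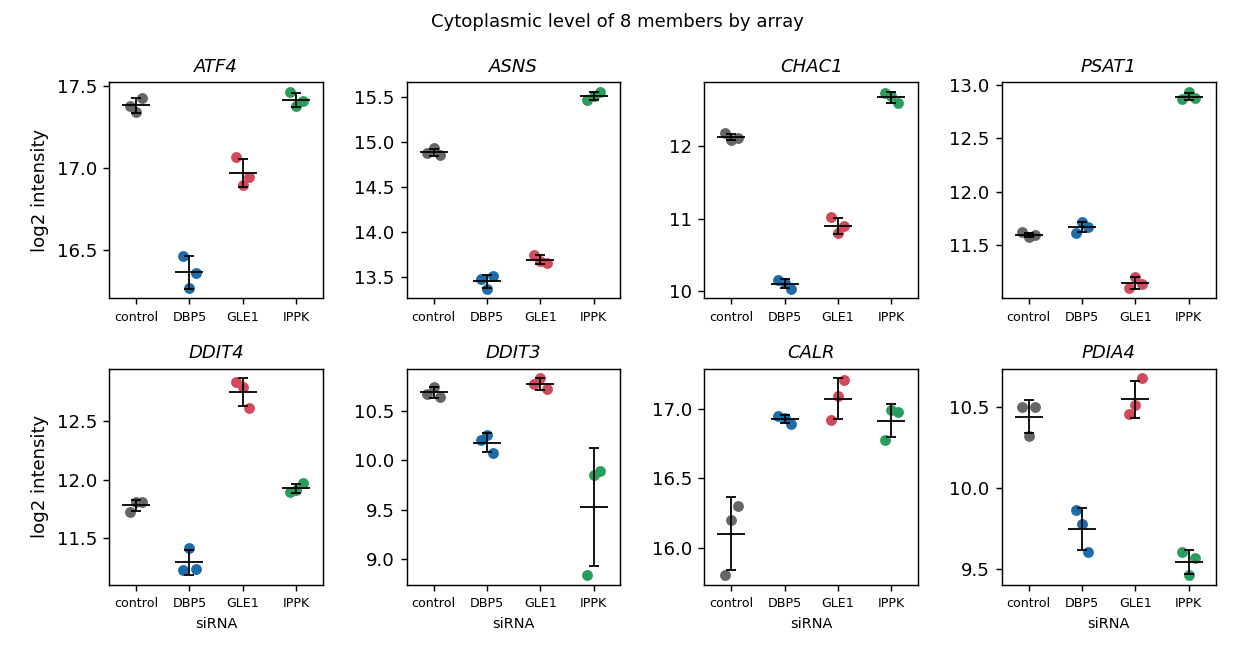
Log2 intensity of 8 genes on each array (points, 3 per siRNA), with the mean (line) and SD (bar). ATF4, ASNS and CHAC1 stood lowest after DBP5 siRNA, DDIT4 stood highest after GLE1 siRNA at 12.62 to 12.84, and PSAT1 stood highest after IPPK siRNA at 12.86 to 12.93, with a separate intensity axis for each gene.

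In the amino acid arm of 12 genes, DBP5 siRNA lowered 7 and raised 2, GLE1 siRNA lowered 8 and raised 1, and IPPK siRNA lowered 3 and raised 7. Over all genes the shares lower and higher were 27.1% and 27.3%, 30.4% and 32.0%, and 28.2% and 27.3%, so the lower count after IPPK siRNA was near the background. ASNS, asparagine synthetase and a much used reporter of ATF4, read 14.89, 14.93 and 14.86 on the control arrays and 13.48, 13.37 and 13.51 after DBP5 siRNA. ASNS read 13.75, 13.68 and 13.66 after GLE1 siRNA and 15.47, 15.52 and 15.56 after IPPK siRNA. The 4 groups did not overlap at any point, with the order DBP5, GLE1, control and IPPK from low to high. ASNS fell to 0.369 ± 0.0180 of control after DBP5 siRNA (SD, n = 3, log2 difference -1.44 ± 0.052 SE, limma adjusted p = 1.04e-08) and to 0.437 ± 0.0142 after GLE1 siRNA (log2 difference -1.20 ± 0.052 SE, limma adjusted p = 1.48e-08). ASNS rose to 1.54 ± 0.0466 after IPPK siRNA (log2 difference 0.62 ± 0.052 SE, limma adjusted p = 2.75e-06). The 3 enzymes of serine synthesis, which act one after the other, did not move as one. PHGDH, the first, read 12.67, 12.61 and 12.69 on the control arrays and 11.80, 11.99 and 12.07 after DBP5 siRNA. PHGDH read 11.88, 11.75 and 11.70 after GLE1 siRNA and 12.93, 12.88 and 12.91 after IPPK siRNA. It fell to 0.613 ± 0.0589 and 0.543 ± 0.0359 of control after DBP5 and GLE1 siRNA (limma adjusted p = 1.52e-05 and 1.79e-06) and rose to 1.19 ± 0.0189 after IPPK siRNA (log2 difference 0.25 ± 0.073 SE, limma adjusted p = 0.0141).

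PSAT1, the aminotransferase of the same route, read 11.62, 11.58 and 11.59 on the control arrays and 11.62, 11.72 and 11.67 after DBP5 siRNA. PSAT1 read 11.10, 11.21 and 11.14 after GLE1 siRNA and 12.86, 12.93 and 12.87 after IPPK siRNA. The IPPK arrays stood more than 1 log2 unit above all others, the GLE1 arrays were the lowest, and the DBP5 arrays overlapped the control. PSAT1 rose to 2.45 ± 0.0606 of control after IPPK siRNA (log2 difference 1.29 ± 0.047 SE, limma adjusted p = 8.39e-09) and fell to 0.733 ± 0.0270 after GLE1 siRNA (log2 difference -0.45 ± 0.047 SE, limma adjusted p = 1.12e-05), with a difference of 0.073 ± 0.047 (SE, limma adjusted p = 0.228) after DBP5 siRNA. PSPH, the phosphatase of the last step, read 11.60, 11.67 and 11.58 on the control arrays and 11.83, 11.74 and 11.71 after DBP5 siRNA. PSPH read 11.80, 11.82 and 11.85 after GLE1 siRNA and 12.80, 12.88 and 12.85 after IPPK siRNA. All 9 knock-down arrays lay above the control arrays, by far the most after IPPK siRNA. PSPH rose to 2.34 ± 0.0709 of control after IPPK siRNA (log2 difference 1.23 ± 0.049 SE, limma adjusted p = 1.41e-08) and to 1.15 ± 0.0186 after GLE1 siRNA (log2 difference 0.21 ± 0.049 SE, limma adjusted p = 0.00362). Its rise to 1.10 ± 0.0463 after DBP5 siRNA (log2 difference 0.14 ± 0.049 SE, limma adjusted p = 0.0287) was lost without the first DBP5 array or without the first or the third control array, with limma adjusted p of 0.08 to 0.0909.

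Of the mitochondrial one-carbon enzymes downstream of serine, both fell after GLE1 siRNA and rose after IPPK siRNA. MTHFD2, which oxidizes the folate unit, read 13.98 to 14.15 on the control arrays, 13.19 to 13.34 after DBP5 siRNA, 13.75 to 13.88 after GLE1 siRNA and 14.22 to 14.28 after IPPK siRNA. It fell to 0.571 ± 0.0321 of control after DBP5 siRNA (log2 difference -0.81 ± 0.063 SE, limma adjusted p = 1.81e-06) and to 0.851 ± 0.0443 after GLE1 siRNA (log2 difference -0.23 ± 0.063 SE, limma adjusted p = 0.00795). It rose to 1.14 ± 0.0240 after IPPK siRNA (log2 difference 0.19 ± 0.063 SE, limma adjusted p = 0.0278), and this rise was lost without the first or the third control array or the second or the third IPPK array (limma adjusted p of 0.0624 to 0.104). SHMT2, which splits serine to feed the route, fell after GLE1 siRNA (log2 difference -0.36 ± 0.070 SE, limma adjusted p = 0.001) and rose after IPPK siRNA (log2 difference 0.36 ± 0.070 SE, limma adjusted p = 0.00128), and its difference after DBP5 siRNA was -0.15 ± 0.070 (SE, limma adjusted p = 0.0938). That last value passed the threshold, at -0.20 and -0.22, without the second control array or the third DBP5 array. CTH, the enzyme that makes cysteine from cystathionine, read 10.97, 11.06 and 10.95 on the control arrays and 10.58, 10.46 and 10.53 after DBP5 siRNA. CTH read 10.06, 9.89 and 9.96 after GLE1 siRNA and 11.27, 11.07 and 11.02 after IPPK siRNA. Its GLE1 arrays were the lowest and lay apart from the DBP5 arrays, while the IPPK arrays overlapped the control. CTH fell to 0.492 ± 0.0291 of control after GLE1 siRNA (log2 difference -1.02 ± 0.075 SE, limma adjusted p = 6.39e-07) and to 0.721 ± 0.0294 after DBP5 siRNA (log2 difference -0.47 ± 0.075 SE, limma adjusted p = 3.18e-04), and its difference after IPPK siRNA was 0.13 ± 0.075 (SE, limma adjusted p = 0.179).

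The amino acid transporters among the genes of this arm mostly fell. SLC7A1, the carrier of cationic amino acids, read 11.75, 11.68 and 11.78 on the control arrays and 10.65, 10.88 and 10.85 after DBP5 siRNA. SLC7A1 read 10.77, 10.95 and 11.04 after GLE1 siRNA and 11.33, 11.38 and 11.44 after IPPK siRNA. All knock-down arrays were below the control arrays, and the level fell to 0.519 ± 0.0432, 0.567 ± 0.0521 and 0.780 ± 0.0302 of the control level with DBP5, GLE1 and IPPK siRNA (limma adjusted p = 3.38e-06, 6.34e-06 and 0.00305). SLC3A2, the heavy chain that brings SLC7A5 to the cell surface, read 12.46, 12.35 and 12.36 on the control arrays and 11.52, 11.63 and 11.58 after DBP5 siRNA. SLC3A2 read 12.21, 12.17 and 12.29 after GLE1 siRNA and 11.90, 11.94 and 11.98 after IPPK siRNA. It also fell after each siRNA, to 0.570 ± 0.0214 after DBP5 siRNA (log2 difference -0.81 ± 0.054 SE, limma adjusted p = 5.79e-07). It fell to 0.732 ± 0.0216 after IPPK siRNA (log2 difference -0.45 ± 0.054 SE, limma adjusted p = 4.30e-05) and to 0.893 ± 0.0384 after GLE1 siRNA (log2 difference -0.16 ± 0.054 SE, limma adjusted p = 0.0223). The small fall after GLE1 siRNA was lost without the first control array or without the first or the second GLE1 array, with limma adjusted p of 0.0563 to 0.0906. SLC7A5, the light chain that carries large neutral amino acids, fell after DBP5 siRNA (log2 difference -0.47 ± 0.10 SE, limma adjusted p = 0.00232) and after IPPK siRNA (log2 difference -0.27 ± 0.10 SE, limma adjusted p = 0.0402). The IPPK call was lost without the first or the third control array or the first or the second IPPK array (limma adjusted p of 0.0671 to 0.146). Its difference after GLE1 siRNA, 0.21 ± 0.10 (SE, limma adjusted p = 0.101), passed the threshold with the replicate number as a block (limma adjusted p = 0.0294). Among other ATF4-linked carriers, the mean rose after IPPK siRNA from 10.93 to 11.69 for SLC7A11 and from 6.31 to 7.40 for SLC1A4. That of SLC6A9 rose from 11.91 to 12.72, SLC38A2 stood at 13.63 and 13.66, and SLC1A5 fell from 11.54 to 11.09.

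Neither of the 2 tRNA-charging members was called lower than control. SARS1, which charges serine, rose after IPPK siRNA to 1.41 ± 0.0192 of control (log2 difference 0.50 ± 0.046 SE, limma adjusted p = 5.75e-06) and after DBP5 siRNA to 1.18 ± 0.0249 (log2 difference 0.23 ± 0.046 SE, limma adjusted p = 0.00133), and its difference after GLE1 siRNA was -0.0035 ± 0.046 (SE, limma adjusted p = 0.957). WARS1, which charges tryptophan, was called in none of the 6 comparisons, with differences from control of 0.10, -0.018 and -0.025 (limma adjusted p = 0.137, 0.8 and 0.735). Other charging genes, singled out from the wider ATF4-linked list after their values were seen, went both ways. CARS1 fell after DBP5 siRNA (log2 difference -0.96 ± 0.053 SE, limma adjusted p = 1.57e-07) and TARS1 after GLE1 siRNA (log2 difference -1.06 ± 0.057 SE, limma adjusted p = 6.68e-08). IARS1 rose after DBP5, GLE1 and IPPK siRNA by 0.29, 0.59 and 1.03 on the log2 scale, and MARS1 by 0.74 after IPPK siRNA (0.31 on a dimmer probe).

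Of the 6 stress outputs of ATF4, 4 fell after DBP5 siRNA, 2 fell and 2 rose after GLE1 siRNA, and 2 rose after IPPK siRNA. Over all genes, 27.1% were lower after DBP5 siRNA. The counts after GLE1 siRNA were near the shares over all genes (30.4% lower and 32.0% higher), as was that of rises after IPPK siRNA (27.3%). CHAC1, which breaks down glutathione and whose promoter stretch is printed above, had the largest fall of all 35 genes and read 12.17, 12.08 and 12.11 on the control arrays and 10.16, 10.12 and 10.04 after DBP5 siRNA. CHAC1 read 11.02, 10.80 and 10.89 after GLE1 siRNA and 12.73, 12.68 and 12.59 after IPPK siRNA. The 4 groups were fully apart, in the order DBP5, GLE1, control and IPPK as for ASNS. CHAC1 fell to 0.247 ± 0.0105 of control after DBP5 siRNA (SD, n = 3, log2 difference -2.02 ± 0.066 SE, limma adjusted p = 6.20e-09) and to 0.430 ± 0.0324 after GLE1 siRNA (log2 difference -1.22 ± 0.066 SE, limma adjusted p = 6.76e-08). CHAC1 rose to 1.46 ± 0.0722 after IPPK siRNA (log2 difference 0.55 ± 0.066 SE, limma adjusted p = 4.39e-05). A dimmer probe of CHAC1 gave -1.98, -1.21 and 0.35. TRIB3, a pseudokinase that dampens ATF4 and AKT signalling, read 14.56, 14.66 and 14.52 on the control arrays and 13.63, 13.53 and 13.59 after DBP5 siRNA. TRIB3 read 14.07, 13.97 and 13.87 after GLE1 siRNA and 14.64, 14.61 and 14.60 after IPPK siRNA. It fell to 0.501 ± 0.0176 and 0.656 ± 0.0447 of control after DBP5 and GLE1 siRNA (limma adjusted p = 2.93e-07 and 6.85e-06), and its IPPK arrays overlapped the control, with a difference of 0.039 ± 0.060 (SE, limma adjusted p = 0.625).

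DDIT4, an inhibitor of the growth kinase mTORC1, read 11.73, 11.81 and 11.81 on the control arrays and 11.23, 11.42 and 11.24 after DBP5 siRNA. DDIT4 read 12.84, 12.79 and 12.62 after GLE1 siRNA and 11.89, 11.92 and 11.97 after IPPK siRNA. Its 3 GLE1 arrays were the highest of all and its 3 DBP5 arrays the lowest. DDIT4 rose to 1.96 ± 0.158 of control after GLE1 siRNA (log2 difference 0.97 ± 0.072 SE, limma adjusted p = 7.51e-07) and fell to 0.714 ± 0.0543 after DBP5 siRNA (log2 difference -0.49 ± 0.072 SE, limma adjusted p = 1.99e-04), and its IPPK arrays lay just above control. Its difference after IPPK siRNA was 0.15 ± 0.072 (SE, limma adjusted p = 0.113). VLDLR, a lipoprotein receptor, read 8.80, 8.75 and 8.71 on the control arrays and 8.80, 8.58 and 8.43 after DBP5 siRNA. VLDLR read 9.22, 9.36 and 9.41 after GLE1 siRNA and 10.15, 9.89 and 9.85 after IPPK siRNA. It rose to 2.32 ± 0.265 of control after IPPK siRNA (log2 difference 1.21 ± 0.10 SE, limma adjusted p = 3.35e-06) and to 1.49 ± 0.0960 after GLE1 siRNA (log2 difference 0.58 ± 0.10 SE, limma adjusted p = 6.13e-04), and its DBP5 arrays overlapped the control, with a difference of -0.15 ± 0.10 (SE, limma adjusted p = 0.269). A dimmer VLDLR probe differed by 0.50 after IPPK siRNA and by 0.028 after GLE1 siRNA, so the probes disagreed on the latter. PPP1R15A (GADD34), which brings the phosphatase back to eIF2 alpha, read 11.01 to 11.25 on the control arrays, 10.17 to 10.65 after DBP5 siRNA, 10.75 to 10.91 after GLE1 siRNA and 10.93 to 11.08 after IPPK siRNA. It fell to 0.636 ± 0.110 after DBP5 siRNA (log2 difference -0.65 ± 0.12 SE, limma adjusted p = 7.92e-04), with no overlap. The difference after GLE1 siRNA, -0.28 ± 0.12 (SE, limma adjusted p = 0.0595), passed the threshold with the replicate number as a block (limma adjusted p = 0.022) and without the second control array. STC2, a secreted glycoprotein, was dim, with values of 3.68 to 4.40, was called in none of the 6 comparisons, and was well above background on 3 control, 1 DBP5, 2 GLE1 and 0 IPPK arrays.

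**Figure D3:**
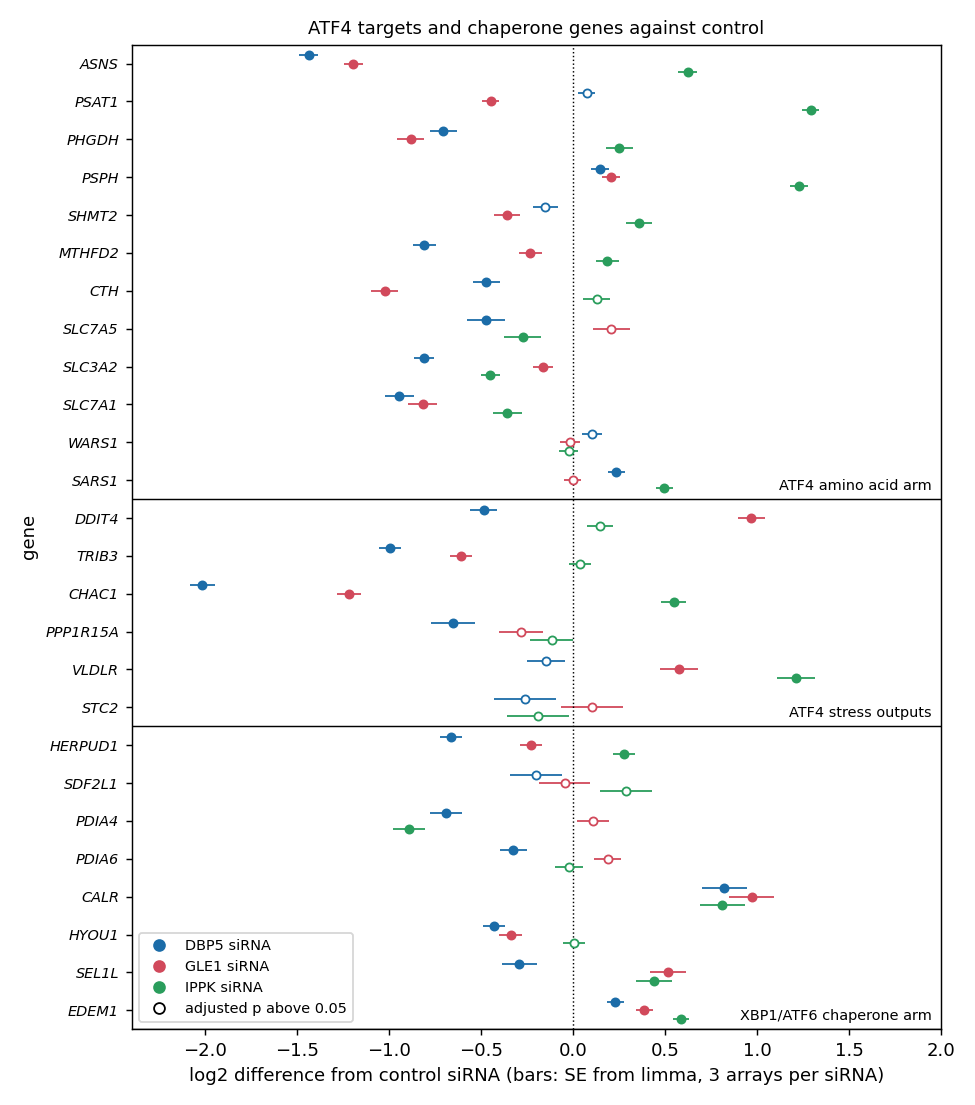
Log2 difference from control siRNA (points, bars are the SE from limma, 3 arrays per siRNA) for the amino acid arm, the stress outputs and the chaperone arm, with open points where the adjusted p was above 0.05. DBP5 and GLE1 points lay far left for ASNS (-1.44 and -1.20) and CHAC1 (-2.02 and -1.22), IPPK points lay right for PSAT1 (1.29) and PSPH (1.23), and the 3 points of CALR lay together between 0.81 and 0.97.

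In the chaperone arm of 8 genes, 5 were lower and 2 higher after DBP5 siRNA, 2 lower and 3 higher after GLE1 siRNA, and 1 lower and 4 higher after IPPK siRNA. Over all genes, 27.1% were lower after DBP5 siRNA, and 28.2% were lower and 27.3% higher after IPPK siRNA. Both counts after GLE1 siRNA were near the shares over all genes (30.4% lower and 32.0% higher), as was the higher count after DBP5 siRNA (27.3%). CALR, calreticulin, the lectin chaperone with a stress element in its promoter stretch, read 15.81, 16.20 and 16.30 on the control arrays and 16.95, 16.93 and 16.89 after DBP5 siRNA. CALR read 16.92, 17.09 and 17.21 after GLE1 siRNA and 16.78, 16.99 and 16.97 after IPPK siRNA. All 9 knock-down arrays were above all control arrays, of which the first was the lowest. CALR rose to 1.77 ± 0.0351, 1.96 ± 0.194 and 1.75 ± 0.142 of control with DBP5, GLE1 and IPPK siRNA (SD, n = 3, limma adjusted p = 2.12e-04, 4.68e-05 and 2.30e-04). EDEM1, which draws misfolded glycoproteins into degradation, rose in the same 3 comparisons, to 1.17 ± 0.0163, 1.31 ± 0.0376 and 1.5 ± 0.0566 of control (limma adjusted p = 0.00156, 2.93e-05 and 1.70e-06). Its arrays read 8.11 to 8.16 on the control arrays, 8.33 to 8.37 after DBP5 siRNA, 8.48 to 8.56 after GLE1 siRNA and 8.65 to 8.75 after IPPK siRNA, with no overlap between any knock-down and control.

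The disulfide isomerases and the other degradation genes took other directions. PDIA4 read 10.50, 10.32 and 10.50 on the control arrays and 9.86, 9.77 and 9.61 after DBP5 siRNA. PDIA4 read 10.45, 10.51 and 10.67 after GLE1 siRNA and 9.61, 9.46 and 9.56 after IPPK siRNA. It fell to 0.619 ± 0.0550 of control after DBP5 siRNA (log2 difference -0.69 ± 0.086 SE, limma adjusted p = 5.61e-05) and to 0.539 ± 0.0269 after IPPK siRNA (log2 difference -0.89 ± 0.086 SE, limma adjusted p = 8.06e-06), while the GLE1 arrays overlapped the control (log2 difference 0.11 ± 0.086 SE, limma adjusted p = 0.31). PDIA6, with the same enzyme activity and a stress element before its start, fell after DBP5 siRNA (log2 difference -0.32 ± 0.075 SE, limma adjusted p = 0.00384) and had a difference of -0.024 ± 0.075 (SE, limma adjusted p = 0.816) after IPPK siRNA. Its difference after GLE1 siRNA was 0.19 ± 0.075 (SE, limma adjusted p = 0.051), which passed the threshold with the replicate number as a block (limma adjusted p = 0.0129), without the first control array and without the second GLE1 array. HERPUD1, a membrane protein of the degradation machinery whose promoter stretch holds the letters of both arms, read 14.76, 14.83 and 14.68 on the control arrays and 14.19, 14.02 and 14.07 after DBP5 siRNA. HERPUD1 read 14.57, 14.52 and 14.49 after GLE1 siRNA and 15.08, 15.01 and 15.02 after IPPK siRNA. The DBP5 arrays were lowest and the IPPK arrays highest, with no overlap between groups. HERPUD1 fell to 0.631 ± 0.0380 and 0.853 ± 0.0261 of control after DBP5 and GLE1 siRNA (limma adjusted p = 4.63e-06 and 0.00573) and rose to 1.21 ± 0.0321 after IPPK siRNA (log2 difference 0.28 ± 0.059 SE, limma adjusted p = 0.0022).

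SEL1L, the adaptor of the HRD1 ubiquitin ligase, rose after GLE1 siRNA (log2 difference 0.52 ± 0.097 SE, limma adjusted p = 8.22e-04) and IPPK siRNA (log2 difference 0.44 ± 0.097 SE, limma adjusted p = 0.0028). Its fall after DBP5 siRNA (log2 difference -0.29 ± 0.097 SE, limma adjusted p = 0.0259) was the one call whose arrays overlapped the control. The value was -0.41 without the first DBP5 array, and it was lost without the second or the third DBP5 array or the first or the second control array (limma adjusted p of 0.0576 to 0.0998). For SEL1L, 2 dimmer probes fell after DBP5 siRNA (-0.78 and -0.31, limma adjusted p = 0.00494 and 0.0338). They differed by 0.20 each after GLE1 siRNA, with limma adjusted p of 0.385 and 0.133, and by 0.30 and 0.47 after IPPK siRNA, with limma adjusted p of 0.21 and 0.00368. HYOU1, a large chaperone of the endoplasmic reticulum, fell after DBP5 siRNA (log2 difference -0.43 ± 0.061 SE, limma adjusted p = 1.51e-04) and GLE1 siRNA (log2 difference -0.34 ± 0.061 SE, limma adjusted p = 6.25e-04), and its difference after IPPK siRNA was 0.0051 ± 0.061 (SE, limma adjusted p = 0.956). SDF2L1, a cochaperone, was not called against control, and it read 16.65 to 16.68 on the control arrays, 16.04 to 16.69 after DBP5 siRNA, 16.58 to 16.64 after GLE1 siRNA and 16.92 to 16.97 after IPPK siRNA. The third DBP5 array of SDF2L1 lay apart from the rest. Its difference after DBP5 siRNA was -0.20, but 0.011 without that array, and after GLE1 siRNA it was -0.046. All its IPPK arrays lay above control, with a difference of 0.29 ± 0.14 (SE, limma adjusted p = 0.11) that was called when only the 6 arrays compared were fitted (limma adjusted p = 0.00203).

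Set side by side, the medians of the arms lay furthest apart after GLE1 siRNA. The median log2 difference of the 12 amino acid genes was -0.47 after DBP5 siRNA, -0.30 after GLE1 siRNA and 0.22 after IPPK siRNA. For the 8 chaperone genes the medians were -0.31, 0.15 and 0.28. Taken on each array, the median of the amino acid arm was -0.52, -0.49 and -0.41 on the DBP5 arrays. It was -0.27, -0.30 and -0.33 on the GLE1 arrays, and 0.27, 0.22 and 0.22 on the IPPK arrays. The median of the chaperone arm was -0.11, -0.37 and -0.47 on the DBP5 arrays, 0.13, 0.085 and 0.22 on the GLE1 arrays, and 0.31, 0.25 and 0.28 on the IPPK arrays. On the GLE1 arrays the arms thus had opposite signs, and on the DBP5 and IPPK arrays the same sign. These medians are descriptions of lists whose genes moved in both directions, and the difference between the arms was not tested.

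**Figure D4:**
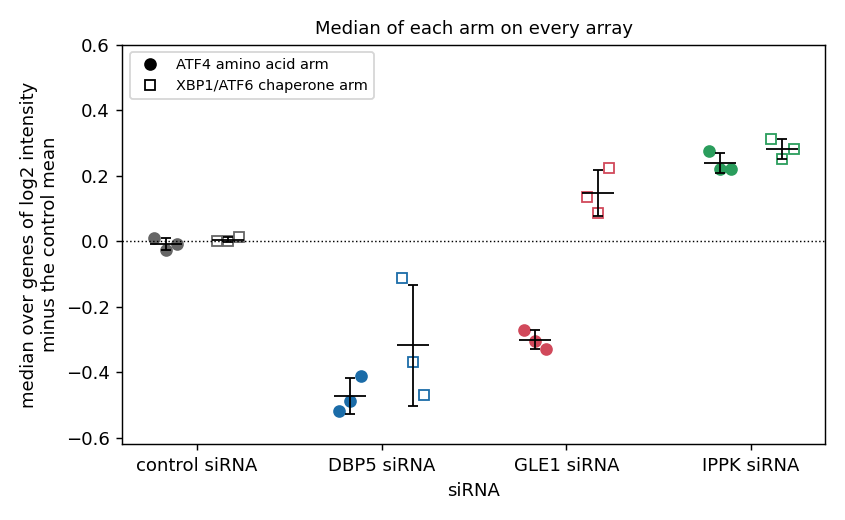
Median over the genes of each arm of the log2 intensity minus the control mean (points, 1 per array), with the mean and SD of the 3 arrays, for the 12 amino acid genes (filled circles) and the 8 chaperone genes (open squares). The GLE1 arrays had amino acid medians of -0.33 to -0.27 and chaperone medians of 0.085 to 0.22.

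The knock-downs were also compared with each other, in the same fit, where the control arrays enter the estimate of the spread but not the difference. Between DBP5 and IPPK siRNA, 26 of the 35 genes were lower after DBP5 siRNA and 1, DDIT3, was higher, against 24.4% and 24.7% of all genes, with a median difference of -0.54 (0.0062 over all genes). Between GLE1 and IPPK siRNA, 18 were lower after GLE1 siRNA and 8 higher, against 29.6% and 31.2% of all genes, with a median of -0.33 (0.044 over all genes). Between GLE1 and DBP5 siRNA, 5 were lower after GLE1 siRNA and 21 higher, against 27.2% and 27.7% of all genes, with a median of 0.39 (0.042 over all genes).

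Between DBP5 and IPPK siRNA, CHAC1 and ASNS had the widest gaps. CHAC1 was at 0.170 of its IPPK level after DBP5 siRNA (log2 difference -2.56 ± 0.066 SE, limma adjusted p = 4.06e-09) and ASNS at 0.240 (log2 difference -2.06 ± 0.052 SE, limma adjusted p = 4.06e-09). Next came VLDLR (log2 difference -1.36 ± 0.10 SE, limma adjusted p = 2.33e-06) and PSAT1 (log2 difference -1.22 ± 0.047 SE, limma adjusted p = 2.98e-08). ATF4 itself was at 0.482 (log2 difference -1.05 ± 0.064 SE, limma adjusted p = 4.96e-07). In the amino acid arm 10 of 12 genes were lower after DBP5 than after IPPK siRNA and none higher, SLC7A5 and WARS1 being the others. Over all genes, 24.4% were lower and 24.7% higher. In the chaperone arm 6 of 8 were lower. The other two were CALR at 0.011 ± 0.12 (SE, limma adjusted p = 0.956) and PDIA4 at 0.20 ± 0.086 (SE, limma adjusted p = 0.0767). With the replicate number as a block SLC7A5 was called lower too (limma adjusted p = 0.0416). PDIA4 was called higher without the third DBP5 array (limma adjusted p = 0.0286), as was WARS1 without the first IPPK array (limma adjusted p = 0.0426). The DDIT3 difference, 0.65 ± 0.22 (SE, limma adjusted p = 0.0345), was lost without any 1 of the DBP5 arrays (limma adjusted p of 0.0557 to 0.0898) and was 0.31 without the first IPPK array (limma adjusted p = 0.00468). The fall of ERN1 was lost without the third DBP5 array (-0.39, limma adjusted p = 0.0578) or the first IPPK array (-0.53, limma adjusted p = 0.0559), and the SDF2L1 difference, -0.49 ± 0.14 (SE, limma adjusted p = 0.0147), was -0.28 without the third DBP5 array.

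Between GLE1 and IPPK siRNA the 12 amino acid genes fell into 9 lower after GLE1 siRNA, 2 higher (SLC7A5 and SLC3A2) and 1 with no call (WARS1). Over all genes, 29.6% were lower and 31.2% higher. ASNS (log2 difference -1.82 ± 0.052 SE, limma adjusted p = 1.64e-09), PSAT1 (log2 difference -1.74 ± 0.047 SE, limma adjusted p = 1.15e-09) and CHAC1 (log2 difference -1.76 ± 0.066 SE, limma adjusted p = 7.82e-09) had the largest gaps. In the chaperone arm 3 were lower and 2 higher, near the shares over all genes (29.6% and 31.2%). The higher were PDIA4, which was 2.00-fold its IPPK level (log2 difference 1.00 ± 0.086 SE, limma adjusted p = 2.79e-06), and PDIA6 (log2 difference 0.21 ± 0.075 SE, limma adjusted p = 0.0319). DDIT3 was 2.37-fold higher after GLE1 than after IPPK siRNA (log2 difference 1.24 ± 0.22 SE, limma adjusted p = 6.81e-04), and by 0.90 on the log2 scale without the first IPPK array. CEBPG was also higher (log2 difference 0.56 ± 0.12 SE, limma adjusted p = 0.00187). The PDIA6 call was lost without the first or the third GLE1 array or the second IPPK array (limma adjusted p of 0.0843 to 0.117).

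Of the 21 genes that were higher after GLE1 than after DBP5 siRNA, DDIT4 had the largest difference. DDIT4 was 2.74-fold higher (log2 difference 1.45 ± 0.072 SE, limma adjusted p = 7.10e-08) and SEL1L 1.75-fold (log2 difference 0.81 ± 0.097 SE, limma adjusted p = 4.22e-05). PDIA4 was 1.74-fold higher (log2 difference 0.80 ± 0.086 SE, limma adjusted p = 1.89e-05), CHAC1 1.74-fold (log2 difference 0.80 ± 0.066 SE, limma adjusted p = 2.63e-06) and ATF4 1.52-fold (log2 difference 0.61 ± 0.064 SE, limma adjusted p = 1.57e-05). The 5 genes that were lower after GLE1 than after DBP5 siRNA were CTH (-0.55), PSAT1 (-0.52), ATF6 (-0.31), SARS1 (-0.24) and SHMT2 (-0.21), given as log2 differences with limma adjusted p of 5.22e-06 to 0.0263. In the chaperone arm 5 of 8 genes were higher after GLE1 siRNA and none lower, and in the amino acid arm 4 of 12 were higher and 4 lower, near the shares over all genes (27.7% and 27.2%). The DDIT3 call was lost without any 1 of the 6 arrays (limma adjusted p of 0.0728 to 0.117). The ERN1 call was lost without the third DBP5 array (0.37) or the second GLE1 array, and that of EDEM1 without the second GLE1 array. PPP1R15A lost its call without the second or the third GLE1 array, and was 0.22, still called, without the first DBP5 array. SHMT2 lost its call without the third DBP5 array (-0.14) or the first or the second GLE1 array. PHGDH, not called here (log2 difference -0.18 ± 0.073 SE, limma adjusted p = 0.065), was called lower without the first DBP5 or first GLE1 array, and STC2 higher without the first DBP5 array.

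Other genes of the pathway were listed by known role. Of 28 other ATF4-linked genes, 16 were lower and 3 higher after DBP5 siRNA, 13 lower and 8 higher after GLE1 siRNA, and 6 lower and 15 higher after IPPK siRNA, with median log2 differences of -0.35, -0.18 and 0.25. Over all genes kept, 27.1% were lower and 27.3% higher after DBP5 siRNA, 30.4% and 32.0% after GLE1 siRNA, and 28.2% and 27.3% after IPPK siRNA. The largest fall in log2 difference was of SLC1A5, a glutamine carrier (-1.66, -0.78 and -0.45 after DBP5, GLE1 and IPPK siRNA, all called). Next were those of the mitochondrial enzyme PCK2 (-0.83 and -1.38 called, -0.19 not called) and of the growth factor VEGFA (-1.34, -0.44 and -0.48, all called). Dimmer probes gave -0.35, -0.39 and 0.29 for PCK2, and -1.58, -1.07 and -0.026 for VEGFA, so the VEGFA probes disagreed after IPPK siRNA (limma adjusted p = 0.807 for the dimmer one). The largest rises were of EPRS1, a tRNA-charging enzyme (1.42 after IPPK siRNA and 0.47 after GLE1 siRNA), and of the secreted factor GDF15 (1.39 after GLE1 siRNA, but -0.69 and -0.74 after DBP5 and IPPK siRNA). ALDH18A1, which starts proline synthesis, rose after each siRNA (0.56, 1.35 and 0.63).

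Of 35 other endoplasmic reticulum stress genes, 9 were lower and 11 higher after DBP5 siRNA, 4 and 13 after GLE1 siRNA, and 7 and 19 after IPPK siRNA, with medians of 0.080, 0.050 and 0.19. After DBP5 siRNA these counts were near the shares over all genes, 27.1% lower and 27.3% higher, and after GLE1 siRNA the higher count was near 32.0%. The other shares over all genes were 30.4% lower after GLE1 siRNA, and 28.2% lower and 27.3% higher after IPPK siRNA. EDEM3, a relative of EDEM1, rose by 1.76, 2.14 and 2.62 on the log2 scale (limma adjusted p = 7.05e-08, 8.98e-09 and 4.68e-09). Its 2 dimmer probes gave 0.85, 0.91 and 1.61, and 1.68, 2.17 and 1.75. ERO1A, the oxidase that feeds disulfide bonds, rose by 1.05, 0.74 and 1.39. Likewise HSPA5 (BiP), the main chaperone of the compartment and a classic target of ATF6 and XBP1, rose by 0.49, 1.12 and 1.31. The largest falls were of the chaperone HSPA13 (log2 difference -1.15 ± 0.26 SE, limma adjusted p = 0.00351 after DBP5 siRNA), of SYVN1, the HRD1 ligase that SEL1L serves (log2 difference -0.74 ± 0.091 SE, limma adjusted p = 3.75e-05 after GLE1 siRNA), and of DERL1, a channel protein of the degradation route (log2 difference -0.67 ± 0.049 SE, limma adjusted p = 1.09e-06 after DBP5 siRNA). DERL1 rose after GLE1 and IPPK siRNA, by 0.21 and 0.19 on the log2 scale, and SYVN1 fell after DBP5 siRNA too (-0.52).

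Of 11 kept genes for eIF2, its exchange factor and the other eIF2 alpha kinases and phosphatase subunits, 5 were lower and 4 higher after DBP5 siRNA, 4 and 3 after GLE1 siRNA, and 1 and 3 after IPPK siRNA. The shares over all genes were 27.1% to 32.0% in each direction of these comparisons, and with so few genes nothing is read from the counts. EIF2S1, which encodes eIF2 alpha itself, fell after DBP5 siRNA (log2 difference -0.96 ± 0.056 SE, limma adjusted p = 2.36e-07) and GLE1 siRNA (log2 difference -0.59 ± 0.056 SE, limma adjusted p = 4.59e-06). PPP1R15B, the constant partner of the eIF2 alpha phosphatase, fell in the same comparisons by 0.93 and 0.61 on the log2 scale, and EIF2B1 fell after GLE1 siRNA (log2 difference -0.39 ± 0.062 SE, limma adjusted p = 2.55e-04) but rose after DBP5 siRNA (log2 difference 0.35 ± 0.062 SE, limma adjusted p = 6.71e-04). EIF2AK4 (GCN2), the kinase that senses uncharged tRNA, rose by 0.76, 0.27 and 0.36, the exchange factor subunit EIF2B5 by 0.68, 0.55 and 0.68, and EIF2S2 by 0.42 after IPPK siRNA (0.90 on a dimmer probe).

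**Figure D5:**
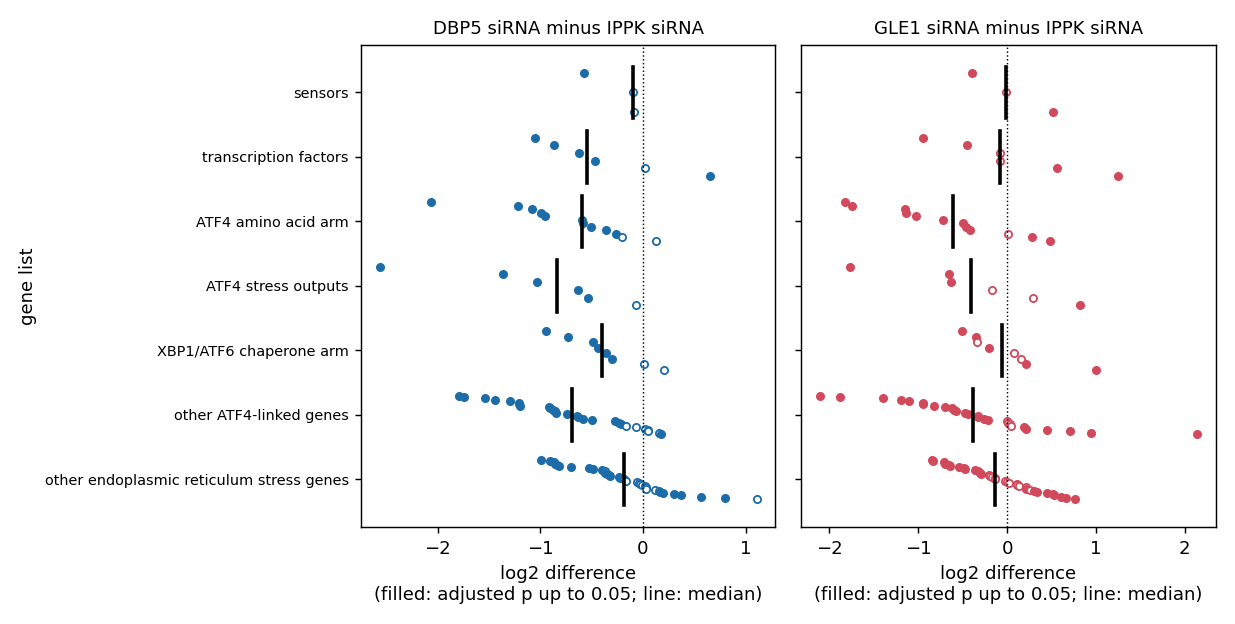
Log2 difference of DBP5 siRNA (left) and GLE1 siRNA (right) from IPPK siRNA for each gene of the 5 roles and of 2 other lists (points, filled where the adjusted p was at most 0.05), with the median of each list as a black line. The medians of the amino acid arm were -0.59 and -0.61, and those of the chaperone arm -0.40 and -0.062, the latter -0.03 without the first GLE1 array.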

How the data were processed

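RNA from the cytoplasm of U2OS cells was measured on 12 arrays, grouped by the sample labels. The authors deposited Feature Extraction output with the linear spot intensity after background subtraction, and a table of processed log2 values, which their methods describe as LOESS-normalized. Here log2 intensities were normalized by cyclic loess with control and outlier spots left out, spots of one probe were averaged, and the brightest probe of a gene was used. Probes were named through RefSeq accessions (26449 of 34127, 77.5%). Genes were fitted with limma 3.58.1 (R 4.3.3), one mean per siRNA over all 12 arrays, with Benjamini-Hochberg adjustment within each comparison at 0.05. Tables and figures used pandas 2.3.3 and matplotlib 3.10.9. The fit was tested on simulated data. No value column was left unassigned.

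Full statistics were given to genes called in at least 1 knock-down against control with no overlap of arrays and at least 1.5-fold. Of the other lists, the 3 largest rises and falls among called genes were named, some by log2 difference alone. The members and lists were chosen with earlier results of these data known. Replicate numbers, whose meaning the labels do not give, pair the arrays: deviations from the group means correlated at r = 0.315 to 0.544 over the 18 pairs of arrays with the same number (-0.333 to -0.0162 over the 36 others). Alternatives were other normalizations and background corrections (normexp with an offset of 50, on the median spot signal), the authors' values, other filters, the mean of a gene's probes, the replicate block, the 6 compared arrays only, a two-sided t-test paired by replicate number and each array left out. The methods name a paired t-test in their general statistics, while their array gene lists came from rank products. Sequences and motifs come from RefSeq promoters (GRCh38.p14), and fitted array values use no coordinates.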

Additional observations from a re-analysis of the deposited data

How the results depend on the processing

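Over 3354 single values of the 35 genes under all alternatives, 3154 kept their side of the threshold, 152 lost the call and 48 gained one. Of the values with a call in the main fit or the alternative, 0 reversed direction. The direction of values called in neither was not compared. The replicate block changed 4 calls, SLC7A5, PPP1R15A and PDIA6 after GLE1 siRNA and SLC7A5 between DBP5 and IPPK siRNA, all gained, and gave 18 lower and 9 higher genes after GLE1 siRNA. The two-sided t-test paired by replicate number called 13 lower and 0 higher after DBP5 siRNA (4 higher at an unadjusted p under 0.05), 4 lower after IPPK siRNA, 3 lower and 10 higher for GLE1 against DBP5 siRNA, and 17 lower and 0 higher for DBP5 against IPPK siRNA (0 higher unadjusted). Over all genes it called 2563 lower and 2490 higher after DBP5 siRNA against 5646 and 5689 by limma, 3700 against 5878 lower after IPPK siRNA, 2716 and 2663 against 5662 and 5766 for GLE1 against DBP5 siRNA, and 1976 and 1911 against 5082 and 5141 for DBP5 against IPPK siRNA. The cause was not tested.

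The arm medians moved by more than the spread between arrays in these cases. Quantile normalization gave the amino acid arm -0.23 after GLE1 siRNA and -0.56 for GLE1 against IPPK siRNA. Scaling to the 75th percentile gave 0.18 for the amino acid and 0.20 for the chaperone arm after IPPK siRNA, and moved the median of all genes for GLE1 against IPPK siRNA to 0.13. Normexp gave the chaperone arm 0.22 and the authors' values gave 0.21 after IPPK siRNA, and the mean of a gene's probes gave it -0.15 for GLE1 against IPPK siRNA. The count of genes higher after DBP5 than IPPK siRNA was 2 under normexp and under the authors' values and 0 with only the 6 arrays (0 unadjusted), and 0 to 2 with 1 array left out (0 without the first or the second DBP5 array, with 2 and 1 at an unadjusted p under 0.05). For single genes, the authors' values and normexp both ended the calls of NUPR1 after GLE1 siRNA, of MTHFD2 after IPPK siRNA, of SEL1L after DBP5 siRNA, of PDIA6 for GLE1 against IPPK siRNA, of DDIT3, ERN1, NUPR1 and EDEM1 for GLE1 against DBP5 siRNA, and of ERN1 and NUPR1 for DBP5 against IPPK siRNA. Quantile normalization ended the calls of MTHFD2 and NUPR1 after GLE1 siRNA (limma adjusted p = 0.0593 and 0.0671) and of SHMT2 for GLE1 against DBP5 siRNA, and gave calls to PPP1R15A and PDIA6 after GLE1 siRNA and to PHGDH and WARS1 for GLE1 against DBP5 siRNA. Scaling to the 75th percentile ended the calls of PSPH after DBP5 siRNA, of ERN1 and MTHFD2 after IPPK siRNA and of ERN1 for DBP5 against IPPK siRNA. It gave calls to SHMT2 after DBP5 siRNA, to CEBPB and PPP1R15A after GLE1 siRNA, to NUPR1 after IPPK siRNA and to STC2 for GLE1 against DBP5 and against IPPK siRNA. The authors' values also ended the call of PSPH after DBP5 siRNA (limma adjusted p = 0.192). Arrays give signal over background and no depth, and the dim ERN1 and STC2 were the least sure.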
